A study of Mus musculus with 8 samples.

Results

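The genes described here are Fn1, Bgn, Sparc, Spp1, Mgp, Igfbp4, Igfbp7 and Fstl1, which encode proteins that cells secrete into the extracellular matrix. They were chosen by name, with earlier results of these data known, and are 8 of the 16647 gene rows of a single-cell count table. All 8 had a row with counts. Matricellular proteins are matrix proteins that do not build fibres themselves. They bind collagens, integrins and growth factors, and so set how a cell senses the matrix around it. Mammary tumours and cells that have left the epithelial state are known to secrete several of them. The name is used loosely for this set, since fibronectin (Fn1) is a fibre-forming glycoprotein and biglycan (Bgn) is a proteoglycan of collagen fibrils.

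The cells were Tri-PyMT cells, cultured from a mammary tumour of a mouse that carried MMTV-PyMT, Fsp1-cre and Rosa26mT/mG. All libraries share these 3 alleles: PyMT is an oncogene expressed in mammary epithelium, the promoter of Fsp1 (S100a4) drives Cre, and Rosa26mT/mG is a reporter that changes from red to green fluorescence once Cre has acted. The cells were sorted into a GFP+ and an RFP+ population and profiled by Drop-seq, which captures polyadenylated RNA of single cells on barcoded beads. Each population has 4 labelled samples, made up of 2 libraries with 2 lanes apiece whose lanes are pooled in the table, so n is 2 libraries labelled GFP+ and 2 libraries labelled RFP+. No label names separate cultures, and p-values therefore measure only the spread between libraries, which may be technical.

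The libraries labelled GFP+ held 2598187 and 2550319 counts in 1597 and 1798 cells, and those labelled RFP+ held 3081009 and 2988631 counts in 1998 and 1997 cells. Median depth lay between 1166 and 1358 counts per cell, and no barcode of a used cell occurred in more than 1 library. The reporter rows went against the labels. CUSTOM_GFP stood at 99.7 and 104 CPM (a count relative to its library's total) in the libraries labelled GFP+, against 612 and 590 CPM in those labelled RFP+. CUSTOM_RFP stood at 2943 and 3053 CPM in the libraries labelled GFP+, against 132 and 137 CPM in those labelled RFP+. S100a4 had 1843 and 2114 CPM in the libraries labelled GFP+ and 648 and 676 CPM in those labelled RFP+. Vim, the gene of the mesenchymal filament protein vimentin, had 3187 and 3315 CPM in the libraries labelled GFP+ and 1947 and 1837 CPM in those labelled RFP+. S100a4, whose promoter drives Cre, was thus higher in the population named for the Cre-dependent reporter, while the reporter rows were the other way round. Whether the populations or the names of the reporter rows are exchanged was not settled here. Every direction below is that of the libraries as labelled, and would turn round if the populations were exchanged.

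The labelled cell type was checked against markers. All 7 markers of mammary tumour epithelium, among them Epcam, Krt8 and Krt18, had counts in every library, and their sum was 1458 and 1374 CPM in the libraries labelled GFP+ against 3197 and 3245 CPM in those labelled RFP+. Of 9 fibroblast markers 5 had a row, with summed counts of 50 and 47 in the libraries labelled GFP+ and 26 and 17 in those labelled RFP+. Col1a1, a defining collagen of fibroblasts, had 1 and 4 counts in the libraries labelled GFP+ and 0 and 0 in those labelled RFP+. Of 10 immune markers 6 had a row, with sums of 87 and 95 counts in the libraries labelled GFP+ against 228 and 197 in those labelled RFP+. Most of these were counts of Cd14, while Lyz2 was at 0 in every library and Ptprc was seen with 2 counts in RFP+ library 1 alone. Of 8 endothelial markers 4 had a row, with 4 and 3 counts in the libraries labelled GFP+ against 0 and 4 in those labelled RFP+, and Cldn5 at 0. Smooth muscle and pericyte markers, with 4 of 6 in the table, summed to 4 and 5 counts in the libraries labelled GFP+ and 6 and 6 in those labelled RFP+. Osteoblast and chondrocyte markers, with 2 of 7 in the table, summed to 1 and 1 counts in the libraries labelled GFP+ and 0 and 3 in those labelled RFP+. The part of any such cells in the results was not tested.

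Promoter sequences from RefSeq (GRCm38.p6, the 250 bases before an annotated start) were found for 6 of the 8 genes, with 7 entries in all. They are shown for Spp1, Igfbp7 and Bgn because they are the gene of the highest share of cells with a count, the gene that was lower in the libraries labelled GFP+, and the gene with the widest difference among the 7 that could be tested. Capitals mark a match to a searched motif. In the Spp1 window these are TATAAA, the letters of a TATA box, at base 40 and CAGGTG, the reverse complement of the E-box CACCTG, at base 153. Bases are counted from the first base printed, and the annotated start follows the last, so the TATAAA match lies at the end of the window away from it.
Spp1, chr5:104434861-104435110, + strand: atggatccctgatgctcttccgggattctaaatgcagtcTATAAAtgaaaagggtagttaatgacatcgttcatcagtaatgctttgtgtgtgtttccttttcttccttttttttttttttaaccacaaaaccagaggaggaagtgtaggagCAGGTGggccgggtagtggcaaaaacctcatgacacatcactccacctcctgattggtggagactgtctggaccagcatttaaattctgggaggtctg
Igfbp7, chr5:77408046-77408295, - strand: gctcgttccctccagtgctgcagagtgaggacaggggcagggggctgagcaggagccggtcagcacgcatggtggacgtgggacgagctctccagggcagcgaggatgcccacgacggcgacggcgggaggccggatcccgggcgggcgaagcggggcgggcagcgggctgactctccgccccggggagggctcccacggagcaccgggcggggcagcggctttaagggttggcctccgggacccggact
Bgn, chrX:73483351-73483600, + strand: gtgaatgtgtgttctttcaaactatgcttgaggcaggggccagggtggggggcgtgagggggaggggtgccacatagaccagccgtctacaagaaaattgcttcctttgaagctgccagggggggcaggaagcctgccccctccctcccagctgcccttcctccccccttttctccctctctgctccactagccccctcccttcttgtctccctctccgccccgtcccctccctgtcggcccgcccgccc
The windows differ in base composition: Igfbp7 held 26 CpG dinucleotides with a GC content of 74.0%, Bgn 7 with 64.4% and Spp1 3 with 43.6%, beside a median of 6 CpG over 32851 promoters. The motifs were searched on both strands. The AP-1 site TGANTCA was in none of the 7 windows and in 6.75% of all promoters, CACCTG was in the Spp1 window and in 17.2% of all, and TATAAA was in the windows of Spp1 and Igfbp4 and in 12.4% of all. A match is a description of these letters and no evidence of binding.

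Between the populations, 5 of the 8 genes were higher in the libraries labelled GFP+, namely Bgn, Mgp, Sparc, Spp1 and Fn1. Igfbp7 was lower, Igfbp4 did not pass the test, and Fstl1 lay below the CPM filter of the test. Across all 7595 genes tested with edgeR, 15.7% were called higher and 14.9% lower at an adjusted p under 0.05, and the median log2 fold was 0.0024, against a median of 0.73 over the 7 genes tested here. Groups that do not overlap were common: all 8 genes had them, and so did 65.0% of all genes tested.

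Of the matrix-building members, Fn1 (chr1:71585520-71653200, minus strand, GRCm38) encodes fibronectin, which integrins assemble into fibres. Fn1 had 134 and 124 CPM in the libraries labelled GFP+, against 99.3 and 96.4 CPM in those labelled RFP+. The groups lay close to each other without overlap, and the log2 fold was 0.38 ± 0.089 (SE; edgeR quasi-likelihood test, adjusted p = 0.000973, n = 2 libraries each). With DESeq2 the Fn1 fold was 0.38 and did not pass, at an adjusted p of 0.0775. Bgn (chrX:73483602-73495933, plus strand) encodes biglycan, a small leucine-rich proteoglycan that binds collagen and TGF-beta. Bgn had 51.2 and 41.2 CPM in the libraries labelled GFP+, from 133 and 105 counts, against 3.89 and 8.37 CPM in those labelled RFP+, from 12 and 25 counts. The RFP+ labelled libraries differed from each other more than those labelled GFP+ did, in proportion, but both lay far below them. The log2 fold of Bgn was 2.90 ± 0.23 (edgeR adjusted p = 1.59e-13). Its size rested on the RFP+ labelled libraries, being 2.44 without RFP+ library 1 and 3.55 without RFP+ library 2.

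Sparc (chr11:55394500-55423183, minus strand) encodes a collagen-binding glycoprotein, also called osteonectin, that loosens cell adhesion. Sparc had 728 and 727 CPM in the libraries labelled GFP+, against 400 and 394 CPM in those labelled RFP+. Libraries of the same population lay within a few CPM of each other, and the log2 fold was 0.86 ± 0.055 (edgeR adjusted p = 3.90e-16). Spp1 (chr5:104435118-104441050, plus strand) encodes osteopontin, an acidic phosphoprotein that binds integrins and CD44. Spp1 had 2671 and 2597 CPM in the libraries labelled GFP+, against 1651 and 1492 CPM in those labelled RFP+. The gap between populations was several times the gap between libraries, with a log2 fold of 0.73 ± 0.050 (edgeR adjusted p = 2.56e-15). Mgp (chr6:136872435-136875823, minus strand) encodes matrix Gla protein, a vitamin K-dependent inhibitor of calcification that also binds BMPs. Mgp had 241 and 241 CPM in the libraries labelled GFP+, against 106 and 113 CPM in those labelled RFP+, a log2 fold of 1.12 ± 0.077 (edgeR adjusted p = 2.56e-15).

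The insulin-like growth factor binding proteins did not follow. Igfbp7 (chr5:77349240-77408041, minus strand) encodes a secreted protein that binds these growth factors weakly and collagen and heparan sulphate as well. Igfbp7 had 448 and 464 CPM in the libraries labelled GFP+, against 662 and 649 CPM in those labelled RFP+. It fell by 0.54 ± 0.056 on the log2 scale (edgeR adjusted p = 3.82e-10), with libraries of one population much closer to each other than to the other population. Igfbp4 (chr11:99041244-99054392, plus strand) encodes a binding protein that holds the growth factors back until a protease cuts it. Igfbp4 had 207 and 220 CPM in the libraries labelled GFP+, against 239 and 230 CPM in those labelled RFP+. The log2 fold of -0.15 ± 0.069 did not pass (edgeR adjusted p = 0.100), and under the other settings tried it lay between -0.21 and -0.09.

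Fstl1 (chr16:37776873-37836514, plus strand), a follistatin-like glycoprotein that binds ligands of the TGF-beta family, was at the limit of detection. It had 12 and 13 counts in the libraries labelled GFP+, against 2 and 1 counts in those labelled RFP+, which is 4.62 and 5.10 CPM in the libraries labelled GFP+ and 0.649 and 0.335 CPM in those labelled RFP+. The ratio of summed counts per total was 9.82, with a 95% exact interval of 3.00 to 50.8 that covers counting error only, as all intervals given here do. Fstl1 lay below the filter of 10 CPM and was not among the genes tested. The fit without a filter included it, but its value there is not given.

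**Figure D1:**
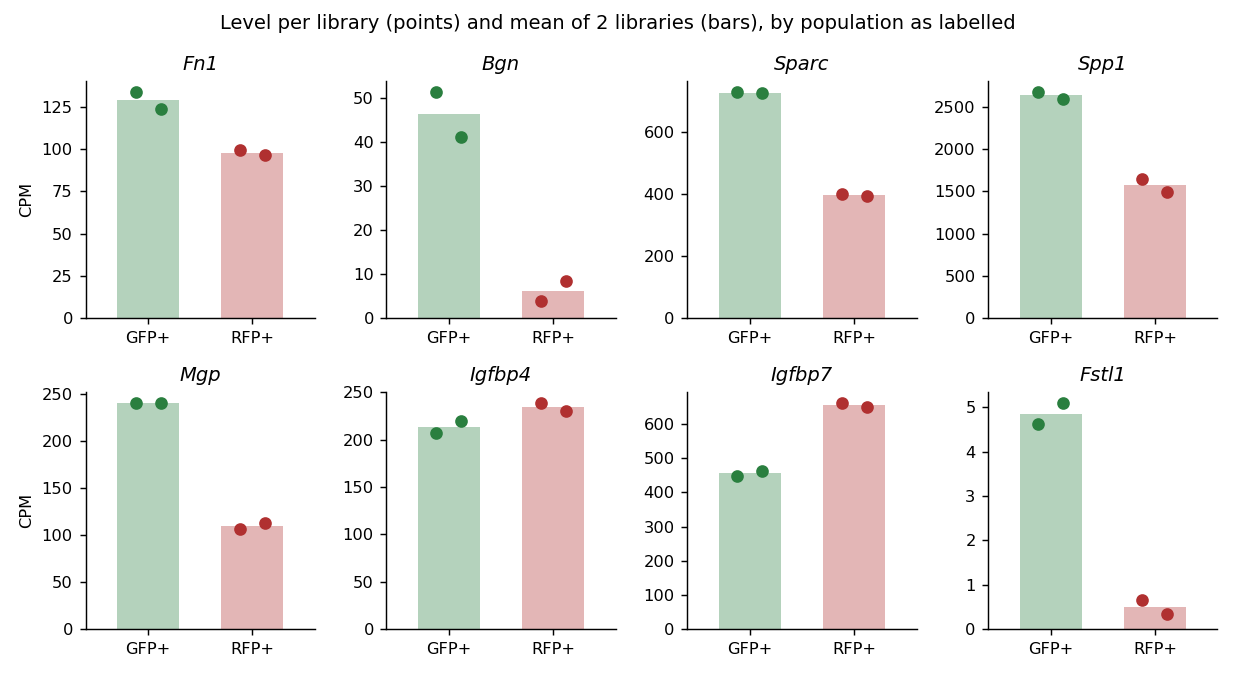
Level of each gene in CPM (vertical axes, from 0) by population as labelled (horizontal axes), with a point for each library and a bar for the mean of 2 libraries. Bgn averaged 46.2 CPM in the libraries labelled GFP+ and 6.13 CPM in those labelled RFP+, while Igfbp7 averaged 456 CPM in the libraries labelled GFP+ and 655 CPM in those labelled RFP+.

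Related genes were read in 7 companion lists that hold the proteins the members resemble, bind or are cut by. Of 136 genes listed 121 had a row and 47 could be tested, of which 6 were higher, 11 lower and 30 did not pass. Over all genes tested 30.5% were called in either direction (15.7% higher and 14.9% lower), so the companion lists, which are small, are described by their members and not by these counts. Their median log2 fold was -0.11. Among 15 tested matricellular and matrix glycoproteins 2 were higher and 3 lower. Fbln2, which encodes the basement membrane protein fibulin-2 and is also on the mesenchymal list used below, averaged 36.9 ± 3.91 CPM in the libraries labelled GFP+ and 9.58 ± 2.54 CPM in those labelled RFP+ (SD, n = 2 each; log2 fold 1.93 ± 0.21, edgeR adjusted p = 1.05e-09). Ecm1, a secreted matrix glycoprotein gene, averaged 79.1 ± 0.215 CPM in the libraries labelled GFP+ and 47.1 ± 2.71 CPM in those labelled RFP+ (log2 fold 0.73, edgeR adjusted p = 4.51e-06). Lower in the libraries labelled GFP+ were Ltbp2, a microfibril protein gene, with a log2 fold of -1.09 (edgeR adjusted p = 8.51e-05), and Lgals3, the gene of the lectin galectin-3, with -0.33 (edgeR adjusted p = 1.93e-06). The list of the binding protein family around Igfbp4 and Igfbp7, which also holds proteases, gave 2 testable genes out of 9. These were Igfbp2 and the protease gene Htra1, and neither passed. Igfbp2 had 49.7 and 53.7 CPM in the libraries labelled GFP+ against 48.0 and 43.2 CPM in those labelled RFP+. Of 16 further proteoglycan genes 2 were tested. Vcan, which encodes the large proteoglycan versican, was higher (22.3 CPM in the libraries labelled GFP+ against 13.2 CPM in those labelled RFP+, log2 fold 0.75, edgeR adjusted p = 0.00842), and Agrn did not pass.

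Among follistatins and the ligands they bind, Fst and Inhba were lower. Fst, the gene of follistatin, which traps activins, averaged 63.8 ± 7.98 CPM in the libraries labelled GFP+ and 109 ± 5.11 CPM in those labelled RFP+ (log2 fold -0.79, edgeR adjusted p = 1.46e-07). It was the 1 tested gene of its 8-gene list. Inhba, which encodes the activin A subunit, averaged 264 ± 2.10 CPM in the libraries labelled GFP+ and 377 ± 21.4 CPM in those labelled RFP+ (log2 fold -0.53, edgeR adjusted p = 1.94e-08). Of 7 growth factor genes tested, 2 were lower and none higher.

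Of 10 receptor genes tested, 2 were higher and 3 lower, a list too small to set against the 15.7% higher and 14.9% lower over all genes. Itgb1, the beta-1 integrin subunit through which cells hold fibronectin, averaged 1415 ± 43.7 CPM in the libraries labelled GFP+ and 1103 ± 30.3 CPM in those labelled RFP+ (log2 fold 0.35, edgeR adjusted p = 6.67e-07), and the syndecan gene Sdc2 was higher too, by 0.28 (edgeR adjusted p = 0.00865). Sdc1, another syndecan, and Plaur, the urokinase receptor gene, both fell by 0.62 (edgeR adjusted p = 0.000425 for Sdc1 and 0.0131 for Plaur). Cd44, a receptor of osteopontin, had 155 and 134 CPM in the libraries labelled GFP+ against 168 and 158 CPM in those labelled RFP+ and did not pass (log2 fold -0.19, edgeR adjusted p = 0.0716). Cd44, Igfbp2, Htra1 and Agrn are named outside the rule for naming genes. Among 10 tested enzymes 1 was higher and 2 lower. Mmp14, a membrane-bound metalloproteinase that cuts fibronectin, averaged 133 ± 5.32 CPM in the libraries labelled GFP+ and 98.0 ± 6.51 CPM in those labelled RFP+ (log2 fold 0.43, edgeR adjusted p = 0.000262). Mmp3, a secreted metalloproteinase, was lower with a log2 fold of -1.12 (edgeR adjusted p = 0.000231).

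**Figure D2:**
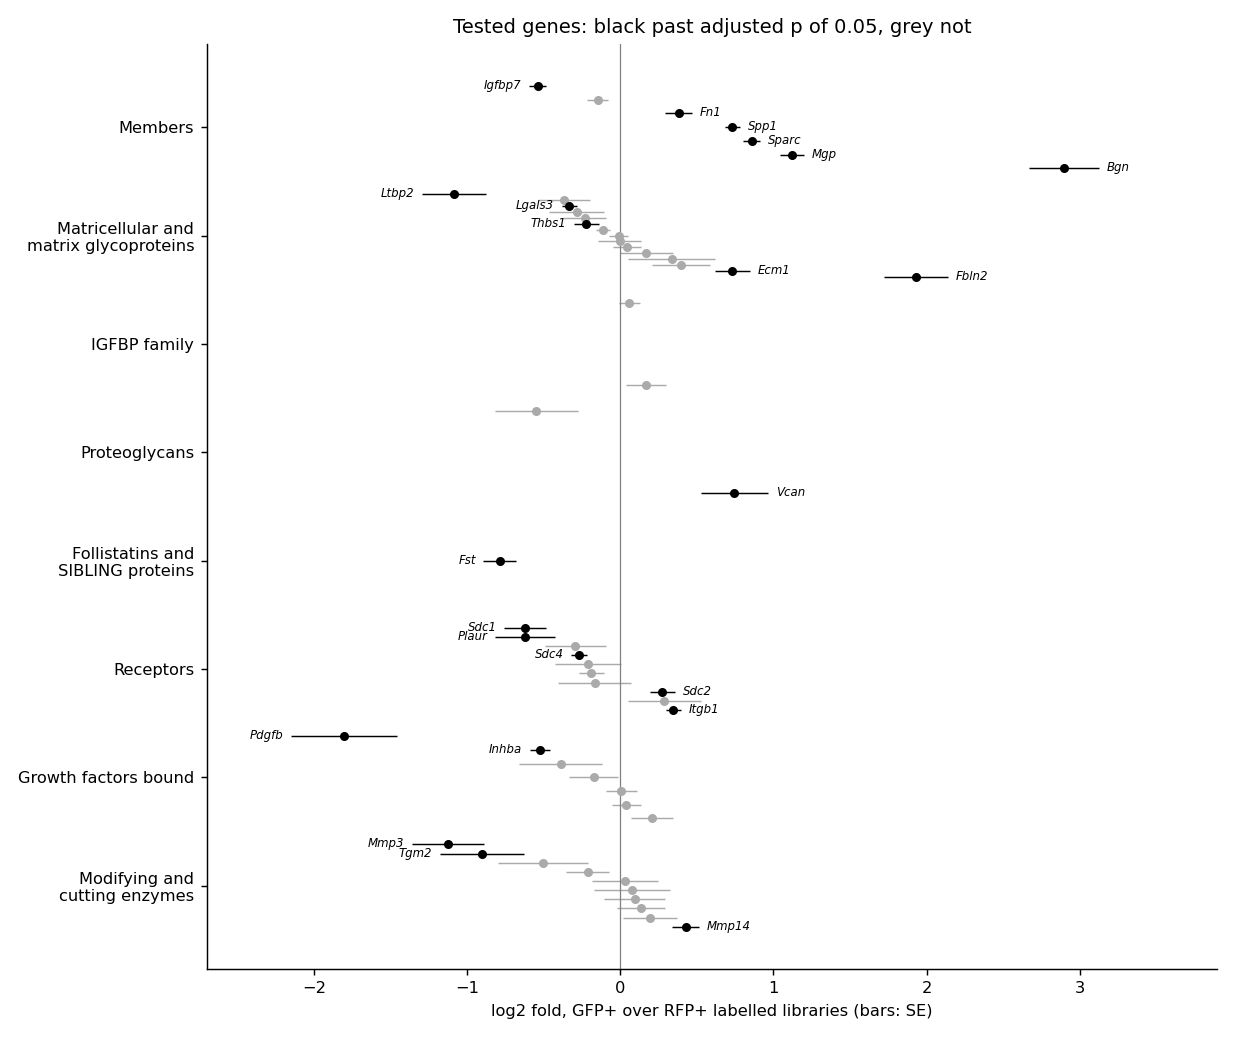
log2 fold of the libraries labelled GFP+ over those labelled RFP+ (horizontal axis; bars are SE) for the 7 tested members and the 47 tested genes of the companion lists (rows), in black where the edgeR adjusted p was under 0.05. Bgn lies at 2.90 and Fbln2 at 1.93, while the companion genes centre near 0, with a median of -0.11.

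Lists of cell state were read against the same 15.7% higher and 14.9% lower over all genes. Of 28 tested epithelial genes, 24 were lower and none higher in the libraries labelled GFP+, with a median log2 fold of -1.09. Of 18 tested mesenchymal genes, from which the members were left out, 11 were higher and 2 lower, with a median of 0.69. For genes of the G2/M phase of the cell cycle, 6 were higher and 7 lower of 26. To set cells of like epithelial counts side by side, a comparison chosen after seeing the data kept the cells with 2 to 3 counts of epithelial genes per 1000 counts. They numbered 522 and 448 in the libraries labelled GFP+ and 353 and 338 in those labelled RFP+, so far fewer counts stood behind the fit. In these cells 4.48% of 6899 genes were called. Sparc (log2 fold 0.68 ± 0.11, adjusted p = 4.14e-08), Spp1 (0.58 ± 0.073, 1.86e-12) and Mgp (0.87 ± 0.17, 7.94e-05) were still higher by edgeR, and Igfbp7 was still lower (-0.37 ± 0.11, 0.0234). Bgn, with 23 and 16 counts in the libraries labelled GFP+ against 1 and 9 in those labelled RFP+, did not pass there (1.43 ± 0.49, edgeR adjusted p = 0.0696), and neither did Fn1 (0.44 ± 0.22, 0.278). Over all cells the Fn1 fold was 0.38 ± 0.089, not larger than in these cells. The part of the smaller number of cells in the lost calls and in the 4.48% was not tested. Epithelial counts and any other difference between the populations cannot be told apart in the remaining cells. Like counts also do not ensure like epithelial content, since so few counts per cell measure it inexactly. Over all thinned cells, 6.84% and 5.35% in the libraries labelled GFP+ had 7 or more epithelial counts, against 27.7% and 29.0% in those labelled RFP+. Whether the kept cells of the populations still differed in epithelial content was not tested.

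How many cells carried each transcript was read after every cell had been thinned to 1000 counts, which kept 1419 and 1233 cells of the libraries labelled GFP+ and 1545 and 1423 of those labelled RFP+. Spp1 was seen in 86.1% and 85.2% of cells in the libraries labelled GFP+, against 71.1% and 68.5% in those labelled RFP+, and 3 or more counts were found in 46.2% and 43.6% of cells labelled GFP+ against 23.6% and 20.9% of those labelled RFP+. In RFP+ library 2 the exact Clopper-Pearson 95% interval of the Spp1 share was 66.0% to 70.9%, so the populations were apart by far more than counting error. Sparc was seen in 50.2% and 48.8% of cells in the libraries labelled GFP+, against 30.4% and 32.2% in those labelled RFP+. Mgp was seen in 20.2% and 20.2% of cells in the libraries labelled GFP+, against 9.32% and 9.14% in those labelled RFP+. All 3 genes were thus found in more cells of both libraries labelled GFP+. Igfbp7 ran the other way, with 37.0% and 35.4% in the libraries labelled GFP+ against 46.8% and 44.5% in those labelled RFP+.

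For the scarcer transcripts the shares were small. Fn1 was seen in 12.5% and 11.2% of cells in the libraries labelled GFP+, against 9.71% and 9.42% in those labelled RFP+, and the intervals overlapped, at 9.49% to 13.1% in GFP+ library 2 and 7.95% to 11.1% in RFP+ library 2. Igfbp4 shares lay close together, with overlapping intervals, at 18.9% and 19.4% in the libraries labelled GFP+ and 20.6% and 19.5% in those labelled RFP+. Bgn was found in 79 and 38 cells of the libraries labelled GFP+ (5.57% and 3.08%) and in 7 and 14 cells of those labelled RFP+ (0.453% and 0.984%). Fstl1 was found in 11 and 4 cells of the libraries labelled GFP+ and in 2 and 1 of those labelled RFP+. The libraries hold no cell type known to lack these transcripts, so the share that free RNA alone would give could not be measured. Without thinning, the mean share for Fn1 was 16.6% in the libraries labelled GFP+ and 13.1% in those labelled RFP+. Counted together, a cell of the libraries labelled GFP+ held a mean of 2.31 and 2.24 of the 8 transcripts, against 1.89 and 1.84 in those labelled RFP+. None of the 8 was seen in 4.16% and 4.87% of cells in the libraries labelled GFP+, against 8.48% and 10.0% in those labelled RFP+, and 4 or more were seen in 14.0% and 13.3% of cells labelled GFP+ against 6.21% and 6.82% of those labelled RFP+.

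**Figure D3:**
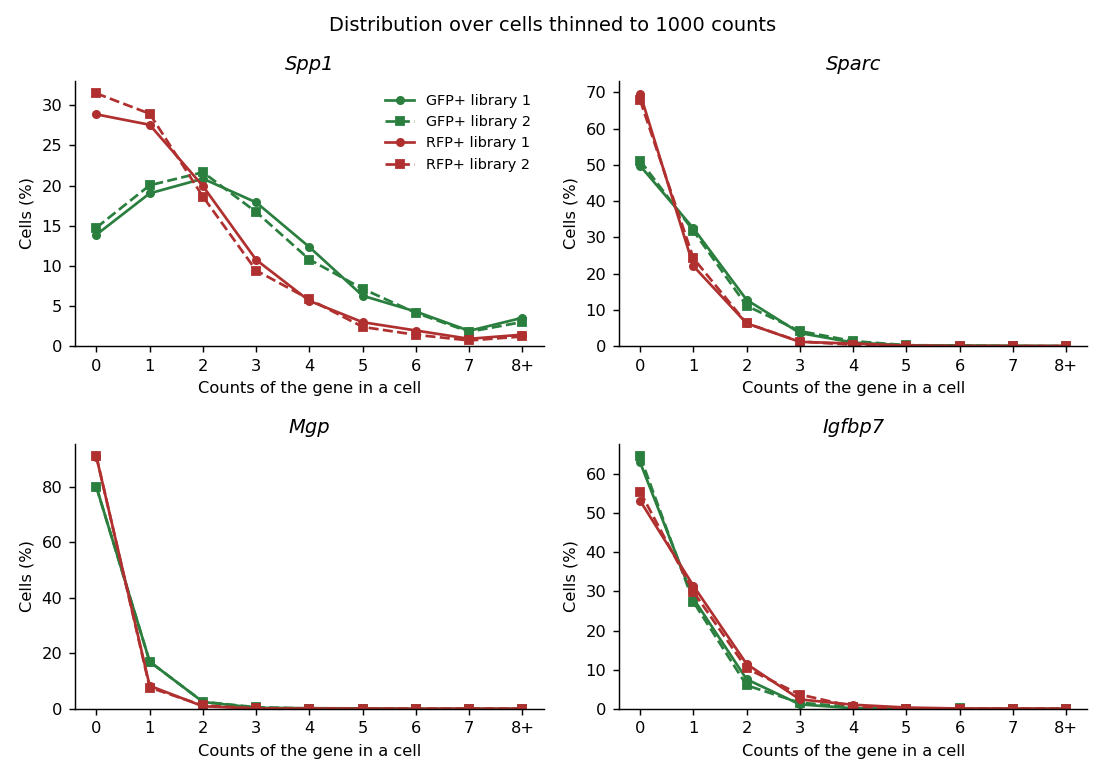
Share of cells in percent (vertical axes, from 0) by the number of counts of a gene in a cell thinned to 1000 counts (horizontal axes), with a line for each library. For Spp1 13.9% and 14.8% of cells in the libraries labelled GFP+ had 0 counts, against 28.9% and 31.5% in those labelled RFP+, and for Igfbp7 the order of the populations is the reverse.

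The spread between cells was measured as the squared coefficient of variation beyond what Poisson counting gives at each cell's depth, and set among 2960 genes with at least 50 CPM in every library. Of the 6 members that reached this level, Mgp was the most uneven in every library, although in thinned cells of GFP+ library 1 Fn1 came above it (1.13 against 1.06). Its value was 0.862 and 1.47 in the libraries labelled GFP+, against 1.61 and 3.59 in those labelled RFP+, which placed it at percentiles 93.3 and 98.5 in the libraries labelled GFP+ and 98.3 and 99.9 in those labelled RFP+. The populations came close to each other (1.47 in GFP+ library 2 and 1.61 in RFP+ library 1). In thinned cells the value of GFP+ library 2 was 0.851, at percentile 84.2, which turns the order of the libraries labelled GFP+ round. The median gene had 0.210 and 0.218 in the libraries labelled GFP+ and 0.253 and 0.245 in those labelled RFP+. Shares were also taken of the sum of Mgp counts after dividing each by its cell's depth. The tenth of cells with most Mgp for their depth held 55.6% and 59.1% of that sum in the libraries labelled GFP+. In those labelled RFP+, where fewer cells had any, it held 89.3% and 91.6%. Fn1, with a smaller spread before thinning, gave 74.4% and 80.7% in the libraries labelled GFP+ and 88.5% and 89.7% in those labelled RFP+. This share therefore does not set Mgp apart.

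Spp1 had a spread of 0.331 and 0.371 in the libraries labelled GFP+, against 0.668 and 0.658 in those labelled RFP+. More cells lacked it than even expression would leave, with 7.95% and 10.2% of cells at 0 where Poisson counting gives 3.19% and 5.22% in the libraries labelled GFP+. In those labelled RFP+ it was 20.2% and 24.1% where Poisson counting gives 12.6% and 16.0%. The population with less Spp1 was the more uneven in it. Sparc showed the same order, with 0.211 and 0.281 in the libraries labelled GFP+ against 0.555 and 0.382 in those labelled RFP+. Igfbp7 had 0.138 and 0.187 in the libraries labelled GFP+ against 0.239 and 0.145 in those labelled RFP+. These values are under the median gene, but in thinned cells Igfbp7 was above it in GFP+ library 2 (0.372 against a median of 0.232) and in RFP+ library 1 (0.310 against 0.261), and in RFP+ library 1 also in cells of at least 1000 counts (0.259 against 0.240). Igfbp4 had 0.254 and 0.499 in the libraries labelled GFP+ and 0.426 and 0.391 in those labelled RFP+, and Fn1 had 0.683 and 0.348 in the libraries labelled GFP+ and 0.711 and 0.312 in those labelled RFP+. For both, libraries of a population differed by more than the populations did. Bgn and Fstl1 had too few counts for the measure. The 2 libraries per population are too few for an exact permutation test to pass 0.05, so none of these orders was tested.

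Depth touched some levels. In the libraries labelled RFP+, cells above the median depth had 369 and 378 CPM of Sparc and those below it 465 and 429 CPM, while in the libraries labelled GFP+ the deeper cells had 724 and 722 CPM and the shallower ones 737 and 736 CPM. For Fn1 the deeper cells of the libraries labelled GFP+ had 118 and 109 CPM and the shallower ones 164 and 153 CPM. The part of depth in the population differences was not tested beyond the fits on thinned cells, in which the same 6 members passed with the same direction.

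Whether the members vary together was read as Pearson's r between cells of depth-adjusted counts, within each library, for the 15 pairs of the 6 members with at least 50 CPM. All values were small and are descriptions, since counts are sparse and the pairs of a library share its cells and depths. Of the 15 pairs, 12 were above 0 in all 4 libraries, and in thinned cells 10 were with log2 counts and 11 with Spearman's rho. The median over the pairs was 0.0497 and 0.0521 in the libraries labelled GFP+ and 0.0599 and 0.0592 in those labelled RFP+, beside a median between -0.0008 and -0.0006 over all 4379320 pairs of the 2960 genes. The mean of the 4 library medians was 0.0552, and in thinned cells 0.0333 with log2 counts and 0.0330 with Spearman's rho. By the mean over the 4 libraries, the highest values were those of Spp1 with Mgp and with Sparc, although in GFP+ library 2 Spp1 with Igfbp4 (0.127) and with Igfbp7 (0.115) came above Spp1 with Sparc. With Mgp its r was 0.202 and 0.148 in the libraries labelled GFP+ and 0.157 and 0.170 in those labelled RFP+, and with Sparc it was 0.130 and 0.110 in the libraries labelled GFP+ and 0.145 and 0.147 in those labelled RFP+. These lie beyond the 99th percentile of all pairs, which was 0.0638 and 0.0602 in the libraries labelled GFP+ and 0.0590 and 0.0590 in those labelled RFP+. Neither this percentile nor the median over all pairs was taken from genes matched to the members in abundance. For an abundant transcript such as Spp1, r is less held down by counting error. Sparc and Mgp, by contrast, gave 0.030 and 0.047 in the libraries labelled GFP+ and 0.070 and 0.096 in those labelled RFP+. Fn1 with Igfbp4 was near 0, at 0.048 and -0.0077 in the libraries labelled GFP+ and -0.014 and -0.010 in those labelled RFP+.

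The same relation was read as levels in cells with and without a count of Spp1. In the libraries labelled GFP+, cells with Spp1 held 260 and 260 CPM of Mgp and cells without it 157 and 159 CPM, the last resting on 31 and 29 counts. In those labelled RFP+, cells with Spp1 held 119 and 133 CPM of Mgp and cells without it 71.7 and 64.7 CPM, from 32 and 29 counts. In the libraries labelled GFP+, cells with Mgp held 3245 and 2975 CPM of Spp1 and cells without it 2538 and 2468 CPM. In those labelled RFP+, cells with Mgp held 2127 and 2349 CPM of Spp1 and cells without it 1643 and 1470 CPM. Even cells without a count of Mgp thus had more Spp1 in the libraries labelled GFP+ than in those labelled RFP+. Sparc in cells with and without Mgp was 739 and 755 CPM in GFP+ library 1 and 852 and 713 CPM in GFP+ library 2, which gives no common direction, while in the libraries labelled RFP+ it was 542 and 403 CPM in library 1 and 693 and 396 CPM in library 2.

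Along the lists of cell state the members separated. With the summed mesenchymal genes, Spp1 had an r of 0.257 and 0.193 in the libraries labelled GFP+ and 0.178 and 0.192 in those labelled RFP+, and Sparc had 0.176 and 0.142 in the libraries labelled GFP+ and 0.133 and 0.117 in those labelled RFP+. With the summed epithelial genes, Sparc had -0.224 and -0.171 in the libraries labelled GFP+ and -0.174 and -0.127 in those labelled RFP+, and Spp1 had -0.175 and -0.149 in the libraries labelled GFP+ and -0.121 and -0.155 in those labelled RFP+. Igfbp7 did not share this: its r with epithelial genes was 0.015 and -0.027 in the libraries labelled GFP+ and 0.084 and 0.087 in those labelled RFP+. Spp1 was also below 0 with G2/M genes in all 4 libraries, between -0.092 and -0.071.

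**Figure D4:**
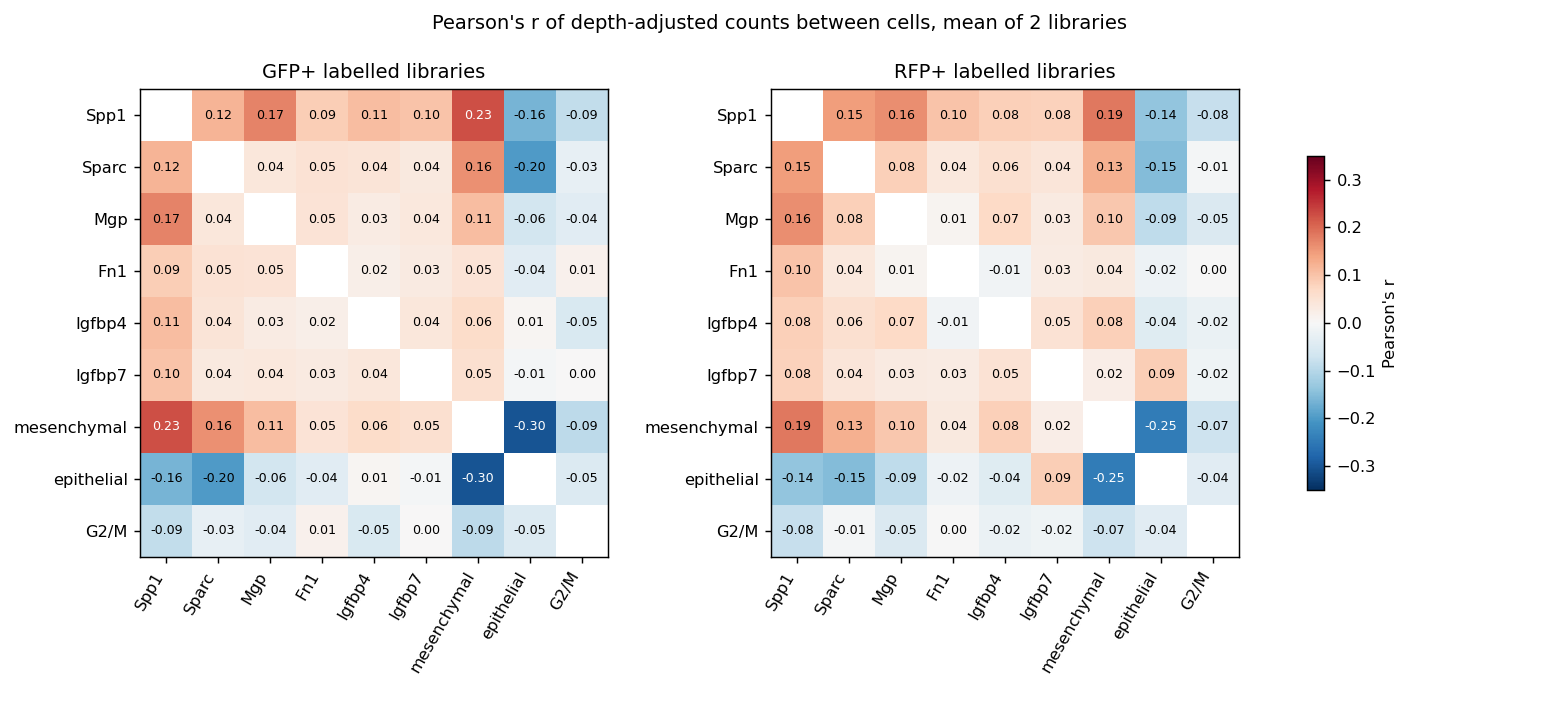
Pearson's r between cells of depth-adjusted counts (colour scale and printed values, mean of the 2 libraries of a population) for 6 members and 3 summed gene lists, in the libraries labelled GFP+ on the left and those labelled RFP+ on the right. The Spp1 row is above 0 with every other member in both panels, and Spp1 and Sparc are below 0 with epithelial genes.

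The level of each member by the epithelial counts of a cell was read in CPM. In cells of GFP+ library 1 with 0, 1, 2 to 3, 4 to 6 and 7 or more epithelial counts, Sparc had 1051, 826, 745, 590 and 381 CPM. In GFP+ library 2 these cells had 907, 748, 790, 583 and 470 CPM. The same steps gave 608, 624, 487, 388 and 318 CPM in RFP+ library 1 and 625, 586, 450, 405 and 363 CPM in RFP+ library 2. Sparc thus fell along the steps in all 4 libraries, although not at every step, and in each of them the libraries labelled GFP+ had the higher values. Few cells fill the ends, with 97 and 66 cells of 7 or more epithelial counts in the libraries labelled GFP+ and 51 and 32 cells of 0 in those labelled RFP+. Spp1 had 1784 and 1758 CPM in cells with 7 or more in the libraries labelled GFP+ and 1397 and 1295 CPM in those labelled RFP+, beside 2761 and 2775 CPM in the libraries labelled GFP+ and 1858 and 1772 CPM in those labelled RFP+ for cells with 2 to 3. In cells with 0, Spp1 had 2748 and 2777 CPM in the libraries labelled GFP+ and 1392 and 2219 CPM in those labelled RFP+. RFP+ library 1 thus showed no fall of Spp1 from 0 to 7 or more. Igfbp7 had 477 and 469 CPM in cells with 2 to 3 epithelial counts in the libraries labelled GFP+ and 606 and 592 CPM in those labelled RFP+, and with 7 or more it had 495 and 409 CPM in the libraries labelled GFP+ and 738 and 705 CPM in those labelled RFP+. In cells with 0, Igfbp7 had 421 and 472 CPM in the libraries labelled GFP+ and 569 and 344 CPM in those labelled RFP+. The value of 344 CPM, from 11 counts, lay below both libraries labelled GFP+.

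**Figure D5:**
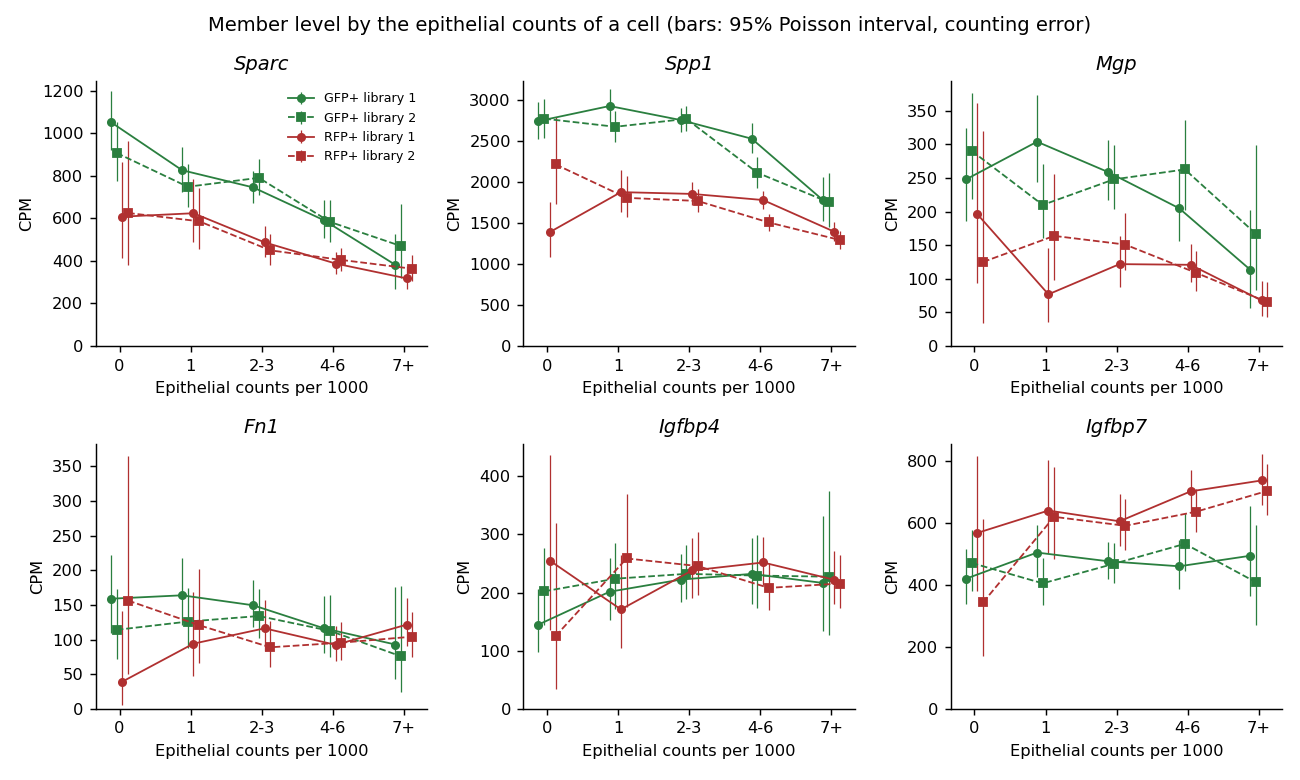
Level in CPM (vertical axes, from 0) by the number of epithelial counts in a cell thinned to 1000 counts (horizontal axes), with a line for each library and bars for the 95% Poisson interval, which covers counting error only. Sparc falls along the axis in all 4 libraries, to 381 and 470 CPM in the libraries labelled GFP+ and to 318 and 363 CPM in those labelled RFP+, while Igfbp4 shows no common direction.

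The genes most alike to each member between cells were ranked among 2793 genes by the mean r over the 4 libraries. For Spp1 these were Fth1 (0.214), the ferritin heavy chain gene, then Vim (0.176) and Mgp (0.169). For Mgp they were Spp1 (0.169), Fth1 (0.143) and S100a6 (0.108), a calcium-binding protein gene. For Sparc they were Spp1 (0.133), Vim (0.119) and Timp2 (0.117), an inhibitor of metalloproteinases. Spp1 also led for Igfbp4 (0.095, then Fth1 with 0.084 and Tm4sf1 with 0.076) and for Igfbp7 (0.090, then P4hb with 0.079 and Cp with 0.069). For Fn1 the highest mean was that of Malat1 (0.108), a nuclear long noncoding RNA, before Spp1 (0.092) and Aebp1 (0.082). In the libraries labelled RFP+, however, Spp1 (0.110 and 0.088) came above Malat1 (0.093 and 0.082) for Fn1. Nor did Spp1 come first in every library for Sparc, Mgp, Igfbp4 and Igfbp7. Spp1, Fth1 and Vim are abundant transcripts, for which r is less held down by counting error, and the lists of scarcer genes are to be read with that in mind.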

How the data were processed

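Single cells of Tri-PyMT populations sorted as GFP+ and RFP+ were profiled by Drop-seq; per the labels' protocols, libraries were made by the Nextera method and sequenced on Illumina. The authors deposited unnormalized counts for every gene in each cell, on GRCm38 per the submitters' processing notes. How reads were aligned, counted and collapsed by molecular identifier, and how cells were chosen, is not given in the sources used here. Cells with at least 500 counts and under 20% mitochondrial counts were used (7390 of 7400, with 0 lost to the mitochondrial limit); no doublets were removed, and their share is unknown. Library sums were tested by the quasi-likelihood F test of edgeR 4.0.16 (R 4.3.3; TMM, Benjamini-Hochberg over 7595 genes with at least 10 CPM in either population and 20 counts in all, threshold 0.05). Each SE is |log2 fold| divided by the root of F. DESeq2 1.42.0 was an alternative. The test and the spread measure were tested on simulated data. Depth-adjusted counts are Pearson residuals with an overdispersion parameter of 100. Coordinates are from GENCODE on GRCm38. Named genes are the 8 members, per companion list up to 4 called genes of at least 20 CPM with the largest change, and the 3 genes most alike to each member, with reporter rows, gene models, ribosomal protein genes and mitochondrially encoded genes left out. The members and lists were chosen with earlier results of these data known.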

Additional observations from a re-analysis of the deposited data

How the results depend on the processing

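Under the other settings (other normalization, DESeq2, filters, thinning, deeper cells, each library left out, replicate block, length and GC offsets) no member changed direction, and of the 6 called members Fn1 alone lost its call, with DESeq2. Bgn, which averaged 46.2 CPM in the libraries labelled GFP+, fell under the filter of 50 CPM and was not tested with it. Log2 folds ranged from 2.44 to 3.55 for Bgn, 1.07 to 1.30 for Mgp, 0.82 to 0.94 for Sparc, 0.67 to 0.80 for Spp1, 0.24 to 0.42 for Fn1 and -0.58 to -0.31 for Igfbp7, the ends at 0.24 and -0.31 coming from the length and GC offsets. Counts of called genes moved more. DESeq2 called 353 genes higher and 368 lower over all genes, against 1190 and 1129 with edgeR, and 6 companion genes lower against 11. A filter of 50 CPM also left 6 companion genes lower, since fewer were tested. Thinned cells gave 732 and 666 calls over all genes and 3 companion genes higher. Cells with 2 to 3 epithelial counts, chosen after seeing the data, gave 142 and 167 calls, 3 members higher, and 1 companion gene higher and 0 lower. The causes were not tested. The library numbers used here follow the order of the sample titles in each population and name no known pairing. The deposited column names number the RFP+ libraries otherwise, and a pairing by those names was not tried. Deviations of same-numbered libraries correlated with r = 0.040. With a replicate block on the numbers used here, Fn1 kept 0.38 (edgeR adjusted p = 0.000295), 5 members were higher and 1 lower, and 1262 and 1214 genes were called. The median r over 15 pairs was 0.0552, and 0.0333 with log2 counts and 0.0330 with Spearman's rho in thinned cells. Depth limits Fstl1 and Bgn most.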

Other observations

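Ncl, which encodes nucleolin, a protein of ribosome assembly in the nucleolus, was the gene most opposed between cells to Spp1 (mean r over the 4 libraries -0.17), Mgp (-0.10), Igfbp4 (-0.083) and Igfbp7 (-0.074). With Spp1 its r was -0.196 and -0.183 in the libraries labelled GFP+ and -0.129 and -0.155 in those labelled RFP+. Ncl itself had 4406 and 4350 CPM in the libraries labelled GFP+, against 4673 and 4690 CPM in those labelled RFP+, and did not pass the edgeR test (log2 fold -0.11 ± 0.046, adjusted p = 0.0623). For Sparc the most opposed gene was Wfdc2, a secreted protein gene of epithelia (-0.13), and for Fn1 it was Npm1, another nucleolar protein gene (-0.053). Ncl is an abundant transcript as well, for which r is less held down by counting error. Ncl, Wfdc2 and Npm1 lie outside the rule for naming genes and were chosen after their values were seen.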
